A study of Mus musculus with 272 samples.

Results

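Solute carriers (Slc and Slco symbols) are membrane proteins that move sugars, amino acids, vitamins, nucleotides, metals and inorganic ions across the plasma membrane and the membranes of organelles. Of the 15771 symbols kept from the deposited expression table, 290 carried a solute carrier name, and 185 of those reached a mean of at least 10 CPM (read counts scaled to a common library size) over the 4 transcriptome libraries of at least 1 stage. Those 185 are the members described here, selected on their transcriptome CPM. The other 105 symbols stayed below the threshold. Just inside it were Slc20a2, with a highest stage mean of 10.1 CPM in blastocysts, and Slc37a1, with 10.1 CPM in morulae. Just outside were Slc16a5, with 9.84 CPM in 4-cell embryos, and Slc12a9, with 9.66 CPM in MII oocytes. The name rule also took in 5 symbols that are not transporters: Slc7a6os, Slc4a1ap, Slc9a3r1, Slc9a3r2 and the pseudogene Slc10a4-ps.

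The study followed mouse development from fully grown oocytes at the germinal vesicle (GV) stage, through MII oocytes arrested at the second meiotic metaphase, to zygotes, 2-cell, 4-cell and 8-cell embryos, morulae and blastocysts. None of these 8 groups carried a treatment or a genetic change in the labels, and the strain and the age of the females are not given in the sources used here. For each stage, 4 pools of 20 oocytes or embryos gave transcriptome libraries. About 100 oocytes or embryos per gradient were lysed with cycloheximide, which holds ribosomes on mRNA, and 3 sucrose gradients per stage (A, B and C) were each cut into 10 fractions, all sequenced after polyA-primed Smart-seq2 amplification. Fractions carry only numbers in the labels. Those numbered 6 to 10 are called the heavy side here, where transcripts carrying many ribosomes lie by convention, and fractions 1 to 5 the light side.

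Glucose carriers of the Slc2 family and monocarboxylate carriers of the Slc16 family bring in the fuels that oocytes and embryos use in turn, with pyruvate and lactate used before glucose. The glycine transporter Slc6a9 and related amino acid carriers also set cell volume in early embryos. Inside the cell, the Slc25 family spans the inner mitochondrial membrane and exchanges ADP for ATP, phosphate, acylcarnitines, glutathione and other metabolites. The Slc39 (Zip) and Slc30 (ZnT) families move zinc into and out of the cytosol, and zinc uptake is a known requirement of oocyte maturation.

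The transcriptome libraries held 11.2 to 24.3 M reads and the fraction libraries 0.0102 to 43.2 M, with 14 libraries of fraction 1 and 1 other under 1 M. The 7 oocyte markers summed to 18097 to 20765 CPM in GV oocytes and to 7.2 to 12.9 CPM in blastocysts, and the 2-cell and blastocyst marker lists were high at their own stages (1983 to 2671 CPM and 2365 to 2887 CPM). Of 12 cumulus and granulosa cell markers, 5 were in the table, and they summed to 6.02 to 69.0 CPM over the 32 libraries. Most of this was Cyp19a1 in oocytes and Amhr2 in later embryos. In the stage means Fshr lay at 0 to 2.455 CPM, highest in GV oocytes, and Inha and Lhcgr at 0 to 1.4 CPM. The part of such cells in the results was not tested. In 2-cell, 4-cell and 8-cell embryos 1 gradient at times had 0 reads of a member on a side where both other gradients had at least 100 CPM: in 5.07%, 6.53% and 1.94% of such cases, against 0.183% in morulae and 0 cases at the 4 other stages. CPM is a share of a library, so fewer cells of a type and less RNA per cell cannot be told apart, nor can a change of one gene's RNA from a change of all the others. Levels of fractions and of transcriptomes come from different library inputs and are not compared in the tests. Nothing in the labels says that pools or gradients came from separate animals, so p-values measure the spread between these samples, which may be technical.

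Mitochondrial carriers formed the class with the highest summed level at all 8 stages by the mean, within 1 SD of metal carriers in MII oocytes. Their sum was larger at each stage from the 4-cell embryo on than at any earlier stage, while those of metal and amino acid carriers were highest in MII oocytes. These transcriptome values chose the members and are given without a test. All 185 members together summed to 5832 ± 73.8 CPM in GV oocytes (mean ± SD, n = 4), 4745 ± 371 CPM in 2-cell embryos and 6827 ± 995 CPM in blastocysts. The 31 mitochondrial carriers summed to 1672 ± 40.1 CPM in GV oocytes, 1226 ± 129 CPM in 2-cell embryos and 3199 ± 547 CPM in blastocysts. The 21 carriers of zinc, iron, copper, magnesium and other metals ran the other way, from 1439.8 ± 99.1 CPM in MII oocytes to 296 ± 59.9 CPM in morulae. The 28 members of the amino acid and peptide class, Slc7a6os included, were at 1239 ± 46.9 CPM in MII oocytes, 401 ± 34.6 CPM in 8-cell embryos and 722 ± 95.9 CPM in blastocysts. The 9 carriers of glucose and other sugars had 2 high points, 519.8 ± 83.7 CPM in MII oocytes and 452 ± 88.2 CPM in blastocysts, with 67.8 ± 4.85 CPM in 8-cell embryos between them. The MII sum was nearly all Slc45a3, at 498.7 CPM, and 1 of the 9 reached 10 CPM there, against 6 in blastocysts. Carriers of vitamins, choline and other organic solutes (15 members) stepped up from 240.2 ± 25.6 CPM in 2-cell to 841 ± 133 CPM in 4-cell embryos. Of the 4-cell sum Slc5a6 alone made up 628 CPM, and 6 of the 15 reached 10 CPM there, against 7 in 2-cell embryos. The 20 members of the class for sodium, potassium, calcium, protons, chloride and bicarbonate, which include the non-transporters Slc4a1ap, Slc9a3r1 and Slc9a3r2, lay between 378 ± 59.7 CPM in blastocysts and 686 ± 68.5 CPM in GV oocytes. The remaining classes were nucleosides and nucleotide sugars (22 members), lipids, bile salts and steroids (14, with the pseudogene), phosphate, sulfate and other anions (11), neurotransmitters and drugs (8) and monocarboxylates (5), and Slc49a4 was left unclassified.

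**Figure D1:**
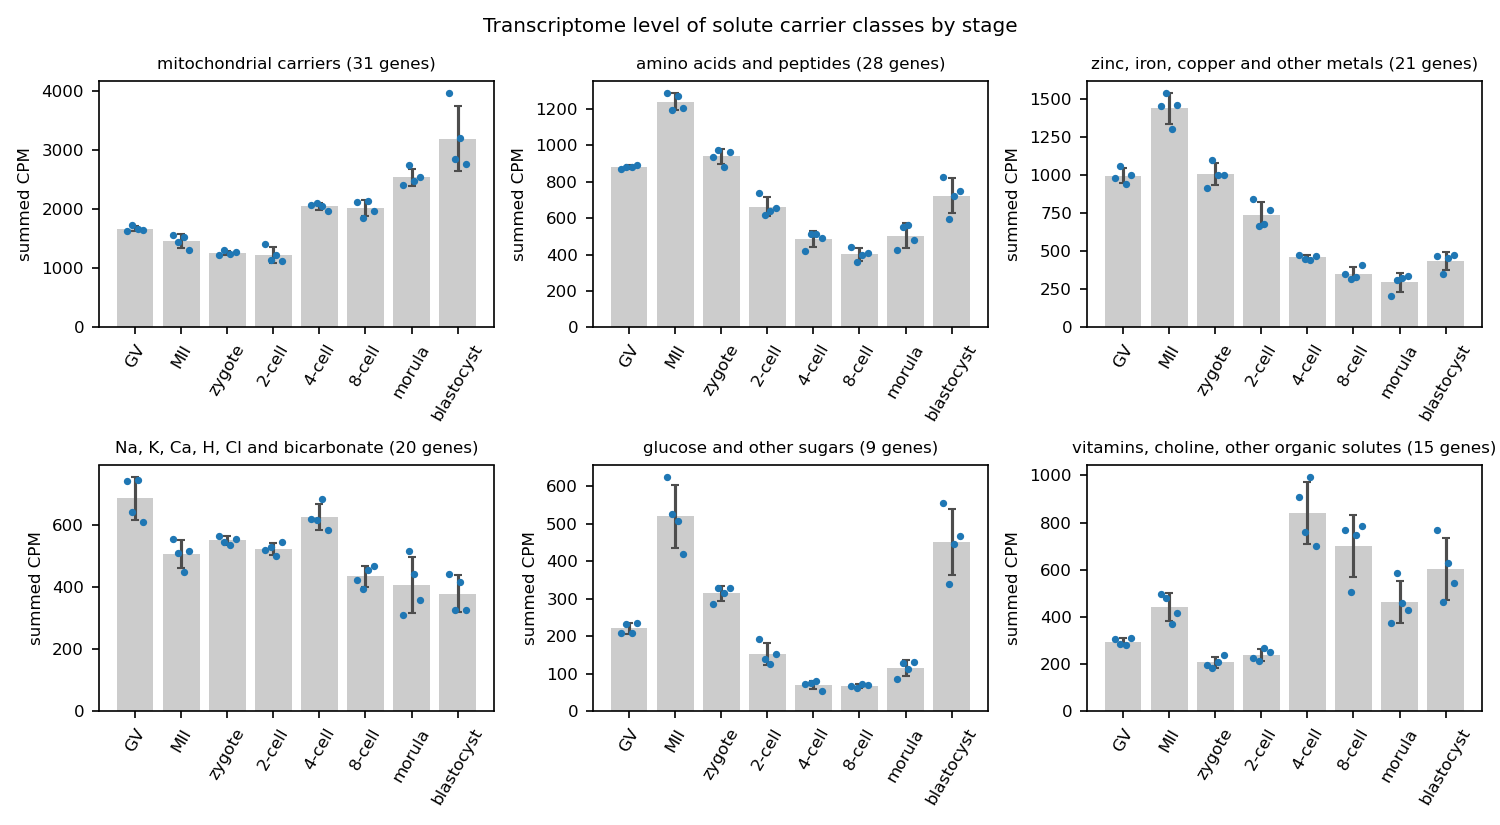
Summed CPM of the members of 6 substrate classes (y axis) in the transcriptome libraries of the 8 stages (x axis), with bars at the mean, whiskers of 1 SD and a point for each of the 4 libraries. Mitochondrial carriers reach 3199 CPM in blastocysts, metal carriers 1439.8 CPM in MII oocytes and sugar carriers 519.8 and 452 CPM in MII oocytes and blastocysts.

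The highest stage mean fell in blastocysts for 54 of 185 members (29.2%), in GV oocytes for 32, in MII oocytes for 32, in 4-cell embryos for 25, in 2-cell embryos for 20, in zygotes for 8, in morulae for 8 and in 8-cell embryos for 6. Over all 10769 genes that reached the same 10 CPM, blastocysts held the highest mean for 26.8%, GV oocytes for 14.3% and MII oocytes for 14.2%. By a 10-fold rule, 34 members (18.4%, against 15.8% of all such genes) were early, with their highest mean in GV oocytes, MII oocytes or zygotes at least 10 times that from the 4-cell stage on. The reverse, late pattern held 55 members (29.7%, against 20.7%), 1 member (Slc35d2, which carries nucleotide sugars into the Golgi) was high in 2-cell embryos alone, and 95 followed none of these. The early group held Slc45a3, Slc7a11, Slc6a9, Slc39a10, Slc30a3, Slc25a31 and Slc12a8, and the late group Slc2a3, Slc5a6, Slc6a8, Slc25a4, Slc1a5 and Slc38a4.

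**Figure D2:**
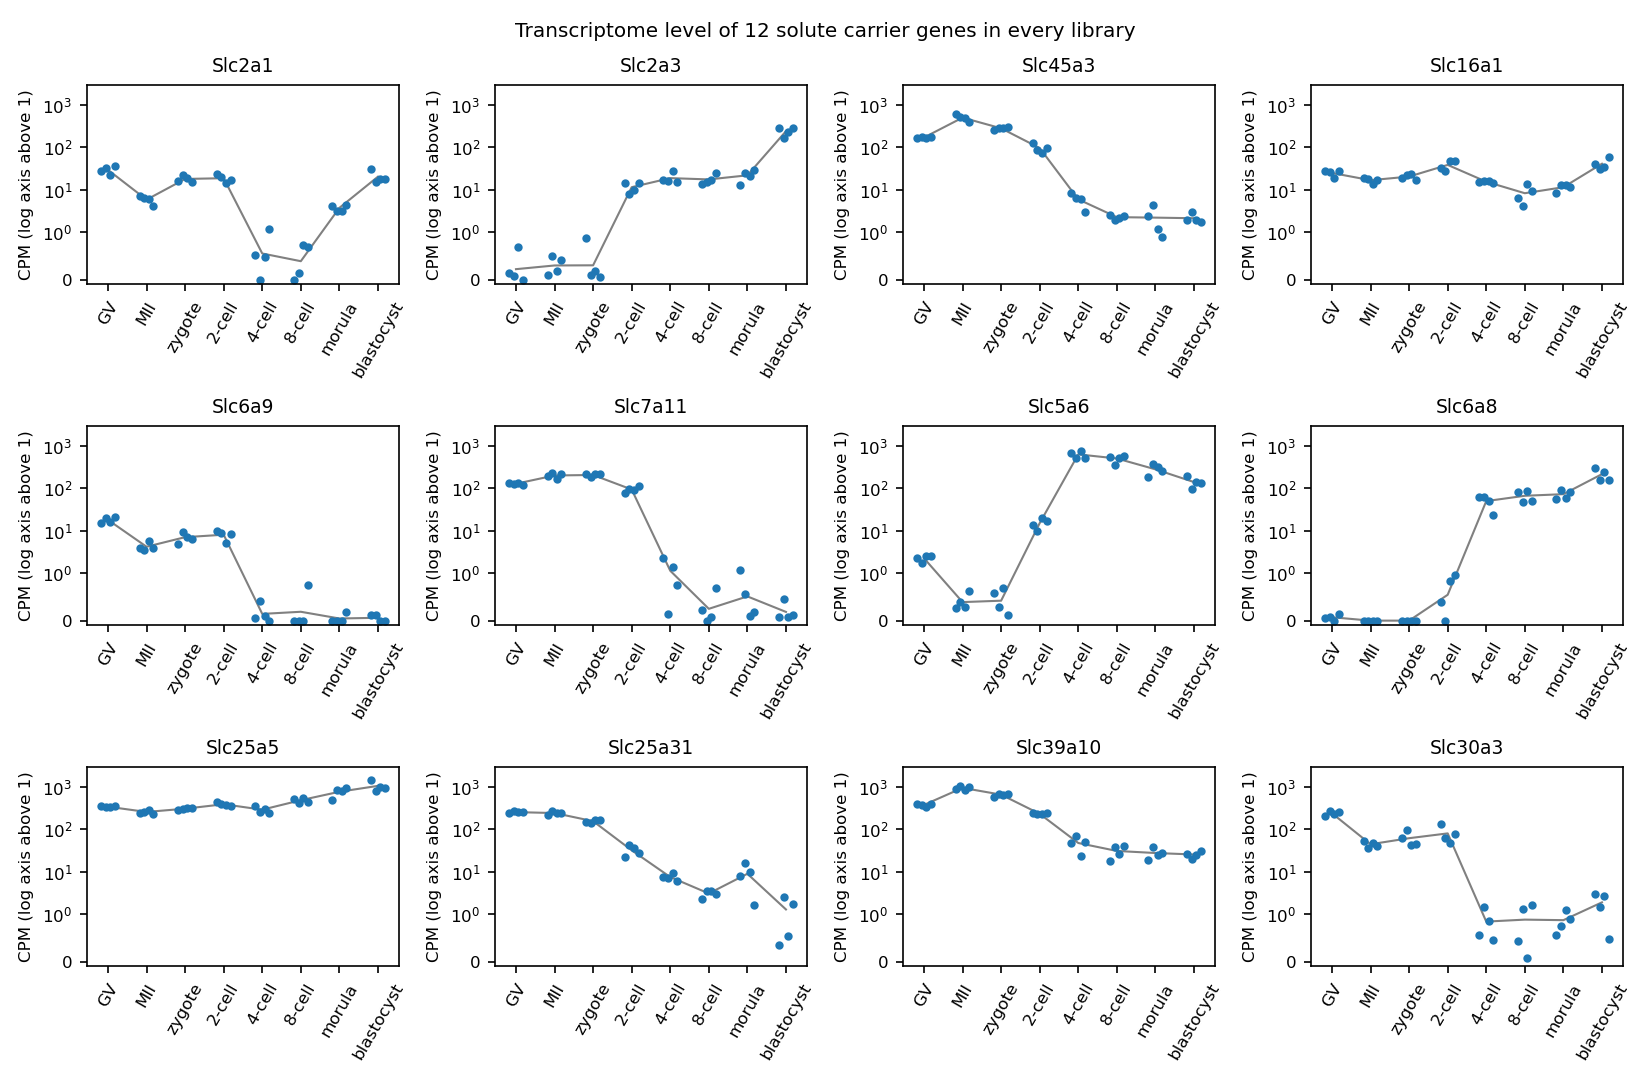
CPM of 12 members (y axes, symmetric log scale) in each of the 4 transcriptome libraries of the 8 stages (x axes), with a line through the stage means. Slc45a3, Slc7a11, Slc39a10 and Slc30a3 meet the early 10-fold rule, Slc2a3, Slc5a6 and Slc6a8 the late one, and Slc25a5 is high throughout.

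Gradient position asked whether a transcript's share was larger on the heavy or on the light side. For each gradient the mean CPM of each side was taken, and a member was called heavy or light where limma, fitted over all 15172 genes tested and all 48 side means, gave a Benjamini-Hochberg adjusted p under 0.05 and a difference of at least 1 on the log2 scale (value + 1). The filter on low values left all 185 members in. On simulated data this fit recovered few or none of the changed genes in 2-cell, 4-cell and 8-cell embryos and morulae. At all stages but the 4-cell, false calls made up more than 0.05 of its calls there. MII oocytes had 16 heavy (8.65%, against 8.86% of all genes) and 7 light (3.78%, against 6.33% of all genes), and blastocysts had 20 heavy (10.8%, against 7.24% of all genes) and 7 light (3.78%, against 10.1% of all genes). Zygotes had 10 heavy (5.41%, against 9.95% of all genes) and 5 light (2.7%, against 5.06% of all genes), and morulae 7 heavy (3.78%, against 5.06% of all genes) and 9 light (4.86%, against 6.29% of all genes). GV oocytes had 6 heavy (3.24%, against 3.3% of all genes) and 0 light (0%, against 0.811% of all genes). At an unadjusted p under 0.05 limma held 5 members light. EdgeR called 0 members light over all groups, beside 4 of 15064 genes, and 3 with the oocytes of that stage alone, beside 430 genes. In 2-cell embryos the counts were 4 heavy (2.16%, against 1.52% of all genes) and 8 light (4.32%, against 2.02% of all genes), and in 8-cell embryos 1 heavy (0.541%, against 1.08% of all genes) and 4 light (2.16%, against 4.03% of all genes). The 4-cell gradients gave 0 heavy (0%, against 0.125% of all genes) and 1 light (0.541%, against 0.692% of all genes). At an unadjusted p under 0.05 limma held 6 members heavy, and shares of all genes at that unadjusted p are not given here. EdgeR over all groups called 12 members heavy, beside 1044 of 15064 genes, and over 4-cell embryos alone 0 members and 0 genes. Quantile normalization turned the split from 6 heavy and 0 light to 5 and 3 in GV oocytes and from 10 and 5 to 6 and 17 in zygotes. Shares of all genes under that setting are not given here. EdgeR over only the groups compared gave 9 heavy and 3 light in GV oocytes, beside 823 and 430 of 15064 genes. It gave 6 and 7 in zygotes, beside 1269 and 414 genes, and 0 and 1 in 2-cell embryos, beside 26 and 33. Morulae had 3 and 1, beside 127 and 127 genes, and blastocysts 17 and 3, beside 697 and 597.

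The heavy side was then compared between consecutive stages, in 24 means over 14524 genes, of which 184 were members. From GV to MII oocytes 9 rose (4.89%, against 4.15% of all genes) and 16 fell (8.7%, against 13.6% of all genes). From MII oocytes to zygotes 7 rose (3.8%, against 3.71% of all genes) and 5 fell (2.72%, against 2.44% of all genes). Between zygotes and 2-cell embryos 3 rose (1.63%, against 3.15% of all genes) and 27 fell (14.7%, against 8.46% of all genes), with a median change of -0.85 over members and -0.51 over all genes. From 2-cell to 4-cell embryos 26 rose (14.1%, against 7.56% of all genes) and 21 fell (11.4%, against 10.9% of all genes). From 4-cell to 8-cell embryos 1 rose (0.543%, against 0.468% of all genes) and 0 fell (0%, against 0.0138% of all genes). At an unadjusted p under 0.05 limma held 3 members lower. EdgeR called 3 members lower over all groups, beside 222 of 14532 genes, and 0 over the 2 stages alone, beside 0 genes. From 8-cell embryos to morulae 14 rose (7.61%, against 6.73% of all genes) and 10 fell (5.43%, against 3.83% of all genes), and from morulae to blastocysts 4 rose (2.17%, against 1.81% of all genes) and 3 fell (1.63%, against 1.63% of all genes). On simulated data this fit recovered few or none of the changed genes in the 4 steps that involve 2-cell, 4-cell or 8-cell embryos, so an uncalled member there is no sign of an unchanged one. With quantile normalization, which moved the all-gene median for zygotes to 2-cell embryos from -0.51 to -0.01, that comparison held 9 rises and 16 falls. GV to MII then held 15 rises and 17 falls, MII to zygote 8 and 9, and 8-cell to morula 12 and 14. Shares of all genes under quantile normalization are not given here. EdgeR over only the groups compared turned the split from GV to MII oocytes to 17 rises and 11 falls, beside 866 and 1020 of 14532 genes. It gave 1 and 2 from MII oocytes to zygotes, beside 88 and 99 genes, and 1 and 1 from zygotes to 2-cell embryos, beside 159 and 67. From 2-cell to 4-cell embryos it gave 9 and 3, beside 210 and 207 genes.

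Each call was refitted under 16 alternatives, and the number that kept it is printed beside it. Calls of members kept without each of the 3 gradients in turn numbered 3 of 23 in MII oocytes, 4 of 15 in zygotes, 4 of 16 in morulae and 7 of 27 in blastocysts for gradient position, and 8 of 25 from GV to MII oocytes, 5 of 30 from zygotes to 2-cell embryos, 16 of 47 from 2-cell to 4-cell embryos and 4 of 24 from 8-cell embryos to morulae for the heavy side. None of the 6 position calls in GV oocytes, of the 12 in 2-cell embryos, of the 12 heavy-side calls from MII oocytes to zygotes or of the 7 from morulae to blastocysts was kept in this way.

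Shifts of gradient position between consecutive stages were tested as the later minus the earlier heavy minus light difference, and few members passed. Those that did were Slc30a2 and Slc16a6 towards the heavy and Slc5a12 and Slc24a3 towards the light side from zygotes to 2-cell embryos, Slc30a2 towards the light side from 2-cell to 4-cell embryos and Slc24a3 towards the heavy side from 4-cell to 8-cell embryos. From zygotes to 2-cell embryos 2 members moved towards the heavy side (1.08%, against 0.732% of all genes) and 2 towards the light side (1.08%, against 0.837% of all genes). From 2-cell to 4-cell embryos 0 moved towards the heavy side (0%, against 0.0791% of all genes) and 1 towards the light side (0.541%, against 0.224% of all genes), and from 4-cell to 8-cell embryos 1 towards the heavy side (0.541%, against 0.033% of all genes) and 0 towards the light side (0%, against 0.0% of all genes). The other 4 steps had 0 member calls in this fit. With a replicate block limma called 3 from GV to MII oocytes. With a pseudocount of 0.1 it called 1 there and 1 from MII oocytes to zygotes, and with a pseudocount of 5 it called 2, 2 and, from morulae to blastocysts, 2. Shares of all genes under these settings are not given here. Without these changes of setting, all genes were called towards the heavy and light sides at 0.765% and 1.05% from GV to MII oocytes, 0.132% and 0.27% from MII oocytes to zygotes, 0.277% and 0.0659% from 8-cell embryos to morulae, and 0.27% and 0.204% from morulae to blastocysts. At an unadjusted p under 0.05, limma held 19 members from GV to MII oocytes, 12 from MII oocytes to zygotes, 12 from 8-cell embryos to morulae and 12 from morulae to blastocysts. Such a cutoff passes about 0.05 of genes where nothing differs, and the share over all genes is not given here. EdgeR over all groups called 0, 0, 3 and 0 members, beside 6, 7, 243 and 0 of 15064 genes. Over the 2 stages alone it called 1, 0, 0 and 0 members, beside 125, 46, 0 and 0 genes.

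The glucose carriers Slc2a1 and Slc2a3 followed different courses. Slc2a1, a widely expressed facilitated glucose carrier, was at 27.4, 32.2, 22 and 36.3 CPM in the 4 GV transcriptomes and Slc2a3, its high-affinity relative, at 278, 166, 233 and 279.6 CPM in those of blastocysts. Slc2a1 averaged 5.87 ± 1.27 CPM in MII oocytes, 18.8 ± 3.93 CPM in 2-cell embryos, 0.553 ± 0.5 CPM in 4-cell embryos and 20.4 ± 6.78 CPM in blastocysts (mean ± SD, n = 4). Slc2a3 averaged 0.222 ± 0.311 CPM in GV oocytes and 17.6 ± 4.72 CPM in 8-cell embryos. On the heavy side Slc2a1 fell from 307, 162 and 287 CPM in gradients A, B and C of GV oocytes to 24.7, 43.7 and 80.5 CPM in MII oocytes. No MII value reached the lowest GV value, and the change was -2.42 on the log2 scale (SE 0.61, limma adjusted p = 0.0066, kept under 13 of 16 alternatives). The call was lost without gradient A, at -1.84. Its GV light side, at 521, 254 and 432 CPM, overlapped the heavy side. It fell again from 2-cell to 4-cell embryos, with a change of -5.51 on the log2 scale (SE 1.60, limma adjusted p = 0.0181, kept under 11 of 16 alternatives), and rose from morulae to blastocysts, by 2.05 on the log2 scale (SE 0.55, limma adjusted p = 0.0376, kept under 8 of 16 alternatives). At -4.60 and -4.67 without gradient A or B, the fall to the 4-cell stage was lost. Each of gradients A, B and C was needed for the rise in blastocysts, with 1.55, 1.81 and 2.79 in its absence.

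Slc45a3, a member of a sugar and proton cotransporter family, was the most abundant sugar carrier by stage mean, at 597, 504, 489.9 and 404 CPM in MII transcriptomes against 5.98 ± 2.18 CPM in 4-cell embryos. Slc45a4 of the same family peaked in blastocysts at 87.3 ± 19.1 CPM. Slc2a8, an intracellular glucose carrier, averaged 56.6 ± 10.6 CPM in blastocysts. On the heavy side Slc2a12, another glucose carrier, fell from GV to MII oocytes, with a change of -2.51 on the log2 scale (SE 0.59, limma adjusted p = 0.00436, kept under 13 of 16 alternatives). Once gradient B was left out, at -2.17, the call was lost. From morulae to blastocysts the largest rise among members was that of Slc37a2, of the sugar phosphate exchanger family. Its heavy side held 1.03, 0.719 and 11.7 CPM in morulae and 40.6, 18.2 and 35.8 CPM in blastocysts, without overlap, a change of 3.12 on the log2 scale (SE 0.57, limma adjusted p = 0.00373, kept under 9 of 16 alternatives). Leaving out gradient A or B gave 2.51 and 2.94 and lost the call.

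Of the 5 monocarboxylate carriers, Slc16a1, the main carrier of lactate and pyruvate in many tissues, stood at 27.9, 25.7, 19 and 27.1 CPM in GV transcriptomes and averaged 41.1 ± 12.1 CPM in blastocysts. The gradients turned on 2 others. Slc16a6, a carrier linked to ketone body export, had 0 reads on the heavy side of all 3 zygote gradients and stood at 119.5, 205 and 38.8 CPM in 2-cell embryos. Against the level that 3 reads over the zygote group would give, its heavy side was 10500-fold higher in 2-cell embryos. Folds against 3 reads, here and below, cover counting error only. They are no lower bounds, since libraries of a group differed by more than sampling noise. The fitted change was 6.64 on the log2 scale (SE 0.96, limma adjusted p = 7.54e-05, kept under 16 of 16 alternatives). Differences fitted against 0 reads depend on the pseudocount of 1 CPM. From morulae to blastocysts Slc16a6 had the largest fall among members, -1.60 on the log2 scale (SE 0.44, limma adjusted p = 0.0459, kept under 5 of 16 alternatives). Without gradient A, B or C the values were -1.57, -2.21 and -1.02, and the call was lost.

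Slc5a12, a sodium-coupled carrier of lactate and pyruvate, was heavy in MII oocytes and zygotes and had 0 reads on the heavy side of 2-cell gradients. In zygotes it was at 18.6, 25.8 and 37.4 CPM on the heavy side and 1.99, 2.79 and 2.96 CPM on the light side of gradients A, B and C. The sides did not overlap, and they differed by 2.94 on the log2 scale (SE 0.33, limma adjusted p = 2.22e-08, kept under 15 of 16 alternatives), the largest heavy call among members at that stage. In MII oocytes the sides held 14.9, 7.43 and 8.72 CPM and 2.51, 2.47 and 3.19 CPM, a difference of 1.56 on the log2 scale (SE 0.32, limma adjusted p = 0.000413, kept under 10 of 16 alternatives). All 3 heavy sides of 2-cell gradients had 0 reads, and the level of 3 reads there was 1650-fold below that of zygotes. The fitted change was -4.77 on the log2 scale (SE 0.61, limma adjusted p = 2.12e-05, kept under 15 of 16 alternatives). Its gradient position also shifted between these stages, by -4.69 on the log2 scale (SE 0.81, limma adjusted p = 0.00174, kept under 14 of 16 alternatives), with 1.44, 0.401 and 10.3 CPM on the light side of the 2-cell gradients. The call was lost without gradient C, at -3.65.

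Amino acid carriers included some that were high in oocytes and others that appeared in embryos. Slc6a9, the glycine transporter, was at 15.6, 19.6, 16.1 and 21.2 CPM in GV transcriptomes and averaged 4.23 ± 0.985 CPM in MII oocytes and 0.142 ± 0.184 CPM in 4-cell embryos. Its heavy side held 1165, 819 and 827 CPM in GV oocytes, 164, 241 and 332 CPM in MII oocytes, 1084, 1303 and 664 CPM in zygotes and 0.122, 0 and 35.3 CPM in 4-cell embryos. MII oocytes lay below both GV oocytes and zygotes. The change was -1.97 on the log2 scale (SE 0.51, limma adjusted p = 0.00833, kept under 10 of 16 alternatives) from GV to MII oocytes and 2.05 on the log2 scale (SE 0.58, limma adjusted p = 0.0357, kept under 8 of 16 alternatives) from MII oocytes to zygotes. At -1.54 and -2.07 without gradient A or B, the first was lost. Dropping gradient A or B gave 1.71 and 1.86, short of the test for the second. From 2-cell to 4-cell embryos Slc6a9 fell, with a change of -7.61 on the log2 scale (SE 1.34, limma adjusted p = 0.000363, kept under 15 of 16 alternatives), and from 8-cell embryos to morulae it had the largest fall among members, -3.59 on the log2 scale (SE 0.74, limma adjusted p = 0.00259, kept under 11 of 16 alternatives). Once gradient C was left out, at -2.61, the later fall was lost. In blastocysts it was called heavy, at 1.44 ± 0.872 CPM against 0.00928 ± 0.00818 CPM (mean ± SD, n = 3), by 1.21 on the log2 scale (SE 0.36, limma adjusted p = 0.0118, kept under 9 of 16 alternatives). Leaving out gradient A or B gave 1.15 and 0.96 and lost the call.

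Slc3a2, the shared heavy chain of several amino acid exchangers, was the most abundant member of its class, at 378, 299, 407 and 329.7 CPM in MII transcriptomes. Its light chain Slc7a11, which exchanges cystine for glutamate, was at 198, 223, 163 and 217 CPM there and 0.185 ± 0.176 CPM in blastocysts. Slc43a3, a nucleobase carrier of a family that also carries amino acids, lay between 219 and 258 CPM in the MII libraries. On the heavy side Slc7a11 fell from 54.9, 70.0 and 94.8 CPM in GV oocytes to 12.8, 31.4 and 26.4 CPM in MII oocytes, -1.65 on the log2 scale (SE 0.52, limma adjusted p = 0.0291, kept under 10 of 16 alternatives), and it was still called heavy in MII oocytes, by 1.53 on the log2 scale (SE 0.51, limma adjusted p = 0.031, kept under 7 of 16 alternatives). Without gradient A or C the values were -1.47 and -1.57, and the fall was lost. The position call was lost without gradient B or C, at 1.03 and 1.83. Slc7a5, the large neutral amino acid carrier that pairs with Slc3a2, rose on the heavy side from 0.0307, 0.935 and 36.1 CPM in 2-cell to 159, 438 and 484 CPM in 4-cell embryos, 6.27 on the log2 scale (SE 1.68, limma adjusted p = 0.0108, kept under 13 of 16 alternatives). At 5.49 without gradient B, the call was lost. Slc3a2 itself fell in that step, -2.95 on the log2 scale (SE 1.01, limma adjusted p = 0.0446, kept under 6 of 16 alternatives). Each of gradients A, B and C was needed for the call, with -1.51, -3.45 and -3.87 in its absence.

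Late in the series 2 carriers of small neutral amino acids rose on the heavy side. Slc38a4 went from 0.0879, 0 and 0.0368 CPM in 8-cell embryos to 37.9, 17.9 and 11.6 CPM in morulae, the largest rise among members in that step, 4.33 on the log2 scale (SE 0.44, limma adjusted p = 7.38e-07, kept under 14 of 16 alternatives). Slc38a1 went from 0.013, 0.0156 and 0.0197 CPM to 14.6, 10.8 and 4.11 CPM, 3.27 on the log2 scale (SE 0.46, limma adjusted p = 6.78e-05, kept under 15 of 16 alternatives). In neither gene did the stages overlap. Slc66a2, placed in this class by its family, rose from 2-cell to 4-cell embryos by 4.93 on the log2 scale (SE 0.74, limma adjusted p = 8.5e-05, kept under 16 of 16 alternatives) and fell from 8-cell embryos to morulae, with a change of -2.25 on the log2 scale (SE 0.40, limma adjusted p = 0.000738, kept under 16 of 16 alternatives). Slc1a7, a glutamate carrier best known from the retina, lay on the light side. In morulae it was at 2.72, 0.336 and 0.27 CPM heavy and 106, 18.2 and 32.1 CPM light, -4.47 on the log2 scale (SE 0.48, limma adjusted p = 6.26e-09, kept under 14 of 16 alternatives). In blastocysts the sides held 0.107, 0.123 and 0.173 CPM and 9.94, 7.38 and 5.29 CPM, -2.88 on the log2 scale (SE 0.31, limma adjusted p = 3.86e-09, kept under 15 of 16 alternatives). Both calls held without fraction 1, whose libraries were shallow.

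Of the 15 carriers of vitamins, choline and other organic solutes, 4 rose and 2 fell on the heavy side from 2-cell to 4-cell embryos (26.7% and 13.3%, against 7.56% and 10.9% of all genes). Slc5a6, which carries biotin and pantothenate, was the most abundant of them, at 690.5, 527, 770.2 and 524 CPM in 4-cell transcriptomes against 15.2 ± 4.31 CPM in 2-cell embryos. Its heavy side held 77.9, 7.91 and 92.1 CPM in 2-cell embryos and 3631, 4521 and 4073 CPM in 4-cell embryos. The stages did not overlap, and the change was 6.65 on the log2 scale (SE 1.91, limma adjusted p = 0.017, kept under 14 of 16 alternatives). Once gradient B was left out, at 5.49, the call was lost. In zygotes, at far lower levels (55.4, 20.0 and 0.0415 CPM heavy and 28.8, 61 and 72.8 CPM light), it had the largest light call among members although the sides overlapped, -2.26 on the log2 scale (SE 0.66, limma adjusted p = 0.0151, kept under 10 of 16 alternatives). Leaving out gradient B or C gave -2.61 and -0.32 and lost the call. Slc6a8, the creatine transporter, was at 296, 159, 245 and 161 CPM in blastocyst transcriptomes. Heavy sides of 2-cell gradients had 0 reads of it, and those of 4-cell gradients 750.3, 252 and 97.8 CPM, 23900-fold above the level of 3 reads. The fitted change was 8.05 on the log2 scale (SE 0.97, limma adjusted p = 1.33e-05, kept under 16 of 16 alternatives). Slc46a1, the proton-coupled folate carrier, rose in the same step by 7.64 on the log2 scale (SE 1.40, limma adjusted p = 0.000483, kept under 16 of 16 alternatives).

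Other members of this class were lost from the heavy side at earlier steps. Slc19a1, the reduced folate carrier, was at 181, 288 and 206 CPM in MII oocytes, 44, 77 and 27.4 CPM in zygotes and 0.186, 0.0247 and 0.0109 CPM in 2-cell embryos on the heavy side. It fell into zygotes, the largest fall among members in that step, with a change of -2.26 on the log2 scale (SE 0.56, limma adjusted p = 0.0169, kept under 10 of 16 alternatives), and again into 2-cell embryos, with -5.44 on the log2 scale (SE 0.96, limma adjusted p = 0.000622, kept under 15 of 16 alternatives). Without gradient A, B or C the values were -2.38, -2.44 and -1.95, and the first fall was lost. Slc23a3, of the ascorbate carrier family, went from 492, 146 and 635 CPM in GV to 21.3, 26.7 and 60.4 CPM in MII oocytes, -3.42 on the log2 scale (SE 0.52, limma adjusted p = 6.23e-05, kept under 15 of 16 alternatives). Its relative Slc23a2, the ascorbate carrier itself, averaged 259.9 ± 38.8 CPM in MII transcriptomes and 12.3 ± 2.53 CPM in blastocysts.

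Mitochondrial carriers lay mostly on the heavy side in morulae and blastocysts. Of the 31 members, 10 were called heavy in blastocysts and 0 light, beside 7.24% of all genes heavy and 10.1% light; 0 were light at an unadjusted p under 0.05 in limma, and edgeR called 0 light. In morulae 6 were heavy and 0 light, beside 5.06% and 6.29% of all genes, with 1 light at an unadjusted p under 0.05 in limma and 0 light by edgeR. The median heavy minus light difference of the 31 was 0.67 in blastocysts and 1.03 in morulae on the log2 scale, against -0.02 and 0.0025 over all genes. In both stages 25 of the 31 differences were above 0, against 50.3% of all genes in morulae and 43.2% in blastocysts. The heavy calls in blastocysts were Slc25a1, Slc25a5, Slc25a35, Slc25a22, Slc25a17, Slc25a10, Slc25a4, Slc25a38, Slc25a20 and Slc25a3. Of these, Slc25a17 is the peroxisomal member of the family. Counts moved with the settings: in blastocysts they were 6 without gradient A, 6 without gradient B, 7 without gradient C, 8 without fraction 1, 8 with quantile normalization, 1 with a spread shared by all stages, 0 in edgeR over all groups and 9 in edgeR over blastocysts alone. In morulae they were 6, 2 and 4 without gradients A, B and C, 5 without fraction 1, 5 with quantile normalization, 1 with a shared spread, and 0 and 3 in the 2 edgeR fits. Of 15064 genes, edgeR over all groups called 18 heavy in blastocysts and 36 in morulae. Over each stage alone it called 697 and 127. The median of the 31 carriers stayed above 0 under all 16 alternatives in both stages, between 0.42 and 0.92 in blastocysts and between 0.70 and 1.20 in morulae. At earlier stages the class had 2 heavy and 0 light calls in GV oocytes (all genes 3.3% and 0.811%), 4 and 2 in MII oocytes (8.86% and 6.33%) and 4 and 1 in zygotes (9.95% and 5.06%). It had 1 and 0 in 2-cell embryos (1.52% and 2.02%), 0 and 0 in 4-cell embryos (0.125% and 0.692%) and 1 and 0 in 8-cell embryos (1.08% and 4.03%). Its medians were 0.13, -0.09, 0, -0.21, -0.53 and 0.39 in that order. The 4-cell median thus lay on the light side, beside -0.26 over all genes.

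**Figure D3:**
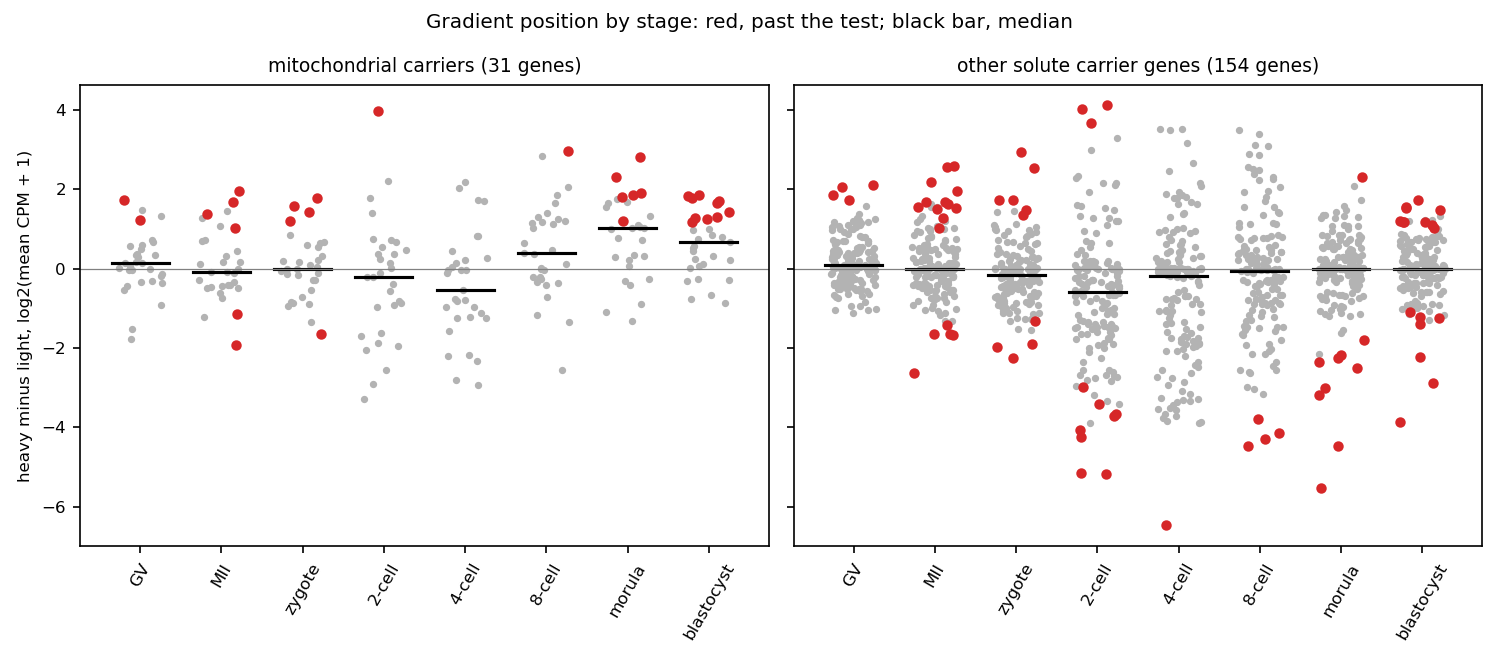
Heavy minus light difference on the log2 scale (y axis) of each of the 31 mitochondrial carriers and of each other member at the 8 stages (x axis), with members past the test in red and a black bar at the median. In morulae and blastocysts the median of the mitochondrial carriers lies at 1.03 and 0.67 and no mitochondrial carrier was called light.

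In blastocysts the mitochondrial carriers called heavy had a median exon length of 3151 bases and those not called one of 4026 bases; the part of length in the result was not tested. Exon length here counts every base in any annotated exon of a gene once. By that length Slc25a5, an ADP/ATP carrier, had the highest mean transcriptome level per kilobase at each stage among the 180 members with a length. The order depends on the length chosen: Slc25a3 had 5550 such bases and a transcript of 1612, and Slc25a5 had 1646 and 1240. In MII oocytes, at 156 CPM per kb, Slc25a5 was level with Slc39a10 at 155 CPM per kb. In blastocysts it reached 639 CPM per kb, and its 4 libraries held 1474, 799.7, 984 and 950.2 CPM. In blastocysts its heavy sides held 2442, 2369 and 3482 CPM and its light sides 731, 728 and 809.5 CPM in gradients A, B and C. The sides did not overlap, and they differed by 1.85 on the log2 scale (SE 0.26, limma adjusted p = 8.64e-07, kept under 14 of 16 alternatives), the largest heavy call among members at that stage. In morulae the values were 1638, 1412 and 1284 CPM and 344, 479 and 378 CPM, 1.86 on the log2 scale (SE 0.40, limma adjusted p = 0.00103, kept under 14 of 16 alternatives). From 8-cell embryos to morulae its heavy side rose by 2.15 on the log2 scale (SE 0.50, limma adjusted p = 0.00684, kept under 12 of 16 alternatives). The call was lost without gradient A or B, at 1.78 and 2.30.

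A second ADP/ATP carrier, Slc25a4, was a late gene, at 705, 440.2, 584 and 355 CPM in blastocyst transcriptomes and 49.7 ± 4.01 CPM in GV oocytes. Its blastocyst heavy sides held 621, 431 and 646 CPM and its light sides 172, 137 and 182 CPM, 1.77 on the log2 scale (SE 0.37, limma adjusted p = 0.000364, kept under 14 of 16 alternatives). It was also heavy in morulae, by 2.30 on the log2 scale (SE 0.56, limma adjusted p = 0.00403, kept under 13 of 16 alternatives), and it was the only member called heavy in 8-cell embryos, by 2.97 on the log2 scale (SE 0.84, limma adjusted p = 0.0281, kept under 9 of 16 alternatives). At 2.27 without gradient B, the morula call was lost. Each of gradients A, B and C was needed for the 8-cell call, with 3.61, 2.72 and 2.58 in its absence. The ADP/ATP carrier of germ cells, Slc25a31, ran the other way, at 238, 264, 261 and 252 CPM in GV transcriptomes and 1.31 ± 1.07 CPM in blastocysts. It was called heavy in GV oocytes, by 1.72 on the log2 scale (SE 0.49, limma adjusted p = 0.036, kept under 9 of 16 alternatives), and in MII oocytes, by 1.67 on the log2 scale (SE 0.49, limma adjusted p = 0.0137, kept under 11 of 16 alternatives). Once gradient A, B or C was left out, at 1.75, 1.63 and 1.77, the GV call was lost. Leaving out gradient B or C gave 1.79 and 1.47 and lost the MII call.

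The phosphate carrier Slc25a3 had heavy sides of 795, 890.2 and 842 CPM and light sides of 300.3, 392 and 366 CPM in blastocysts, 1.26 on the log2 scale (SE 0.21, limma adjusted p = 1.12e-05, kept under 13 of 16 alternatives). Its heavy side rose from GV to MII oocytes by 1.18 on the log2 scale (SE 0.20, limma adjusted p = 0.000264, kept under 14 of 16 alternatives) and from 2-cell to 4-cell embryos by 2.98 on the log2 scale (SE 0.54, limma adjusted p = 0.000443, kept under 15 of 16 alternatives). Slc25a38, which carries glycine for heme synthesis, was on the heavy side at 3 stages. In MII oocytes it was at 318, 425 and 371 CPM heavy and 114, 145 and 171 CPM light, 1.38 on the log2 scale (SE 0.23, limma adjusted p = 2.47e-05, kept under 15 of 16 alternatives), and in blastocysts at 94.7, 98.4 and 78 CPM and 35.7, 34.2 and 29.6 CPM, 1.42 on the log2 scale (SE 0.19, limma adjusted p = 3.09e-07, kept under 15 of 16 alternatives). In zygotes it differed by 1.19 on the log2 scale (SE 0.24, limma adjusted p = 0.000342, kept under 12 of 16 alternatives). Without fraction 1 the value was 0.96, and the zygote call was lost. From MII oocytes to zygotes its heavy side fell, with a change of -1.66 on the log2 scale (SE 0.28, limma adjusted p = 0.000747, kept under 11 of 16 alternatives). That fall was lost without gradient A or B, at -1.63 and -1.48.

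Slc25a39, a carrier of glutathione into mitochondria, was at 422, 358, 419 and 354 CPM in blastocyst transcriptomes. In oocytes its heavy side rose from 149, 156 and 184 CPM in GV to 624, 676 and 589.8 CPM in MII oocytes, without overlap, 1.95 on the log2 scale (SE 0.29, limma adjusted p = 6.21e-05, kept under 15 of 16 alternatives). Its heavy position in GV oocytes had the smallest difference of the 6 calls there, 1.23 on the log2 scale (SE 0.29, limma adjusted p = 0.0102, kept under 11 of 16 alternatives). At 1.34 and 1.19 without gradient B or C, the call was lost. Slc25a20, the carnitine and acylcarnitine carrier of fatty acid oxidation, was called light in MII oocytes and zygotes and heavy in morulae and blastocysts. Its heavy side fell from 5.56, 5.21 and 2.73 CPM in GV to 0.0158, 0 and 0 CPM in MII oocytes, -2.41 on the log2 scale (SE 0.35, limma adjusted p = 3.95e-05, kept under 15 of 16 alternatives). In zygotes it lay on the light side, at 0, 0.0427 and 0.0266 CPM heavy and 3.03, 1.98 and 1.75 CPM light, -1.65 on the log2 scale (SE 0.38, limma adjusted p = 0.00171, kept under 14 of 16 alternatives). It rose on the heavy side from 2-cell to 4-cell embryos by 6.73 on the log2 scale (SE 0.93, limma adjusted p = 4.03e-05, kept under 16 of 16 alternatives), and in blastocysts it was heavy, by 1.18 on the log2 scale (SE 0.30, limma adjusted p = 0.00335, kept under 11 of 16 alternatives). Dropping gradient B gave 1.05, short of the test for the blastocyst call. Slc25a46, which sits in the outer mitochondrial membrane, had the largest heavy call among members in morulae, 15, 7.56 and 10.8 CPM against 0.35, 0.347 and 1.63 CPM, 2.80 on the log2 scale (SE 0.60, limma adjusted p = 0.00104, kept under 13 of 16 alternatives). Once gradient B was left out, at 2.87, the call was lost.

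**Figure D4:**
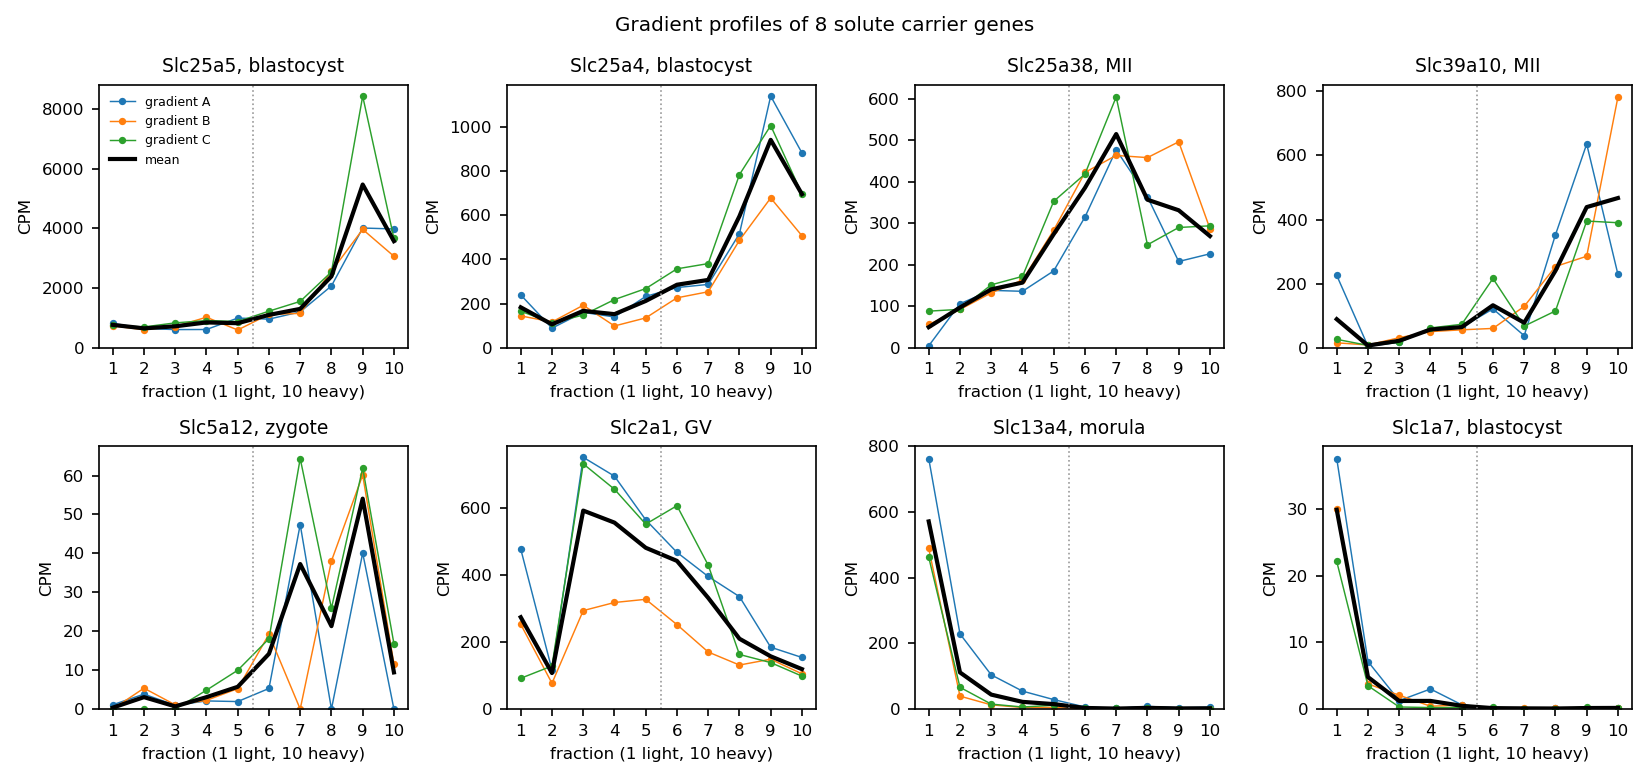
CPM (y axes) of 8 member and stage pairs in fractions 1 to 10 (x axes), with a line for each of the 3 gradients and a black line for their mean; the dotted line parts the light from the heavy side. Slc25a5, Slc25a4 and Slc25a38 rise to the right of the line, Slc39a10 in MII oocytes and Slc5a12 in zygotes likewise, Slc2a1 in GV oocytes lies on both sides, and Slc13a4 and Slc1a7 lie to the left.

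The class for sodium, potassium, calcium, protons, chloride and bicarbonate (20 members, 3 of them no transporters) had 3 heavy and 0 light calls in GV oocytes, beside 3.3% and 0.811% of all genes. MII oocytes had 2 and 0, beside 8.86% and 6.33%, and 2 and 1 in blastocysts, beside 7.24% and 10.1%. Zygotes had 1 and 1, beside 9.95% and 5.06%, and morulae 1 and 0, beside 5.06% and 6.29%. The 2-cell, 4-cell and 8-cell stages had 0 heavy calls, beside 1.52%, 0.125% and 1.08% of all genes. Light calls there numbered 2, 1 and 0, beside 2.02%, 0.692% and 4.03% of all genes. Slc4a7, which brings in sodium with bicarbonate, was heavy in MII oocytes at 64.8, 70.5 and 47.8 CPM against 19.5, 10.6 and 9.36 CPM, without overlap, 2.18 on the log2 scale (SE 0.50, limma adjusted p = 0.00163, kept under 14 of 16 alternatives). It had the largest heavy call among members in GV oocytes, 29.1, 30.1 and 39 CPM against 4.01, 5.59 and 13.1 CPM, 2.11 on the log2 scale (SE 0.51, limma adjusted p = 0.0128, kept under 10 of 16 alternatives). Leaving out gradient A or B gave 1.87 and 2.05 and lost the call. Slc9b1, a sodium and proton exchanger best known from sperm, was at 313, 263, 259 and 296 CPM in zygote transcriptomes and 29.5 ± 8.09 CPM in blastocysts. Slc12a8, a member of the cation and chloride cotransporter family, was at 112, 84.5, 137 and 51.9 CPM in GV transcriptomes. Its relative Slc12a2, the sodium, potassium and chloride cotransporter, averaged 355 ± 35.5 CPM in 4-cell embryos, the highest stage mean of the class, and its heavy side rose there by 5.23 on the log2 scale (SE 1.66, limma adjusted p = 0.0304, kept under 12 of 16 alternatives). Without gradient B or C the values were 4.47 and 4.44, and the call was lost.

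Slc8b1, the sodium and calcium exchanger of mitochondria, had 0 reads on the heavy sides of 2-cell gradients. It was at 755, 506 and 398 CPM on those of 4-cell gradients, 34500-fold above the level of 3 reads. This was the largest fitted rise among members in that step, 9.06 on the log2 scale (SE 1.13, limma adjusted p = 1.7e-05, kept under 16 of 16 alternatives). In blastocysts it lay on the heavy side, at 101, 156 and 102 CPM against 19.9, 33.3 and 62.5 CPM, 1.72 on the log2 scale (SE 0.34, limma adjusted p = 0.00022, kept under 13 of 16 alternatives). Slc4a5, another bicarbonate cotransporter, had the largest fall among members from zygotes to 2-cell embryos, from 131, 132 and 97.8 CPM to 0.0954, 0 and 8.41 CPM on the heavy side, -5.79 on the log2 scale (SE 1.07, limma adjusted p = 0.000961, kept under 13 of 16 alternatives). The call was lost without gradient B, at -5.15. Slc24a3, an exchanger of sodium for calcium and potassium, fell on the heavy side between these stages, with a change of -4.34 on the log2 scale (SE 0.56, limma adjusted p = 2.25e-05, kept under 15 of 16 alternatives), after a rise from GV to MII oocytes of 1.97 on the log2 scale (SE 0.29, limma adjusted p = 4.52e-05, kept under 15 of 16 alternatives). In 4-cell embryos it was the only member with a position call, with 0 heavy reads and 149.7, 68 and 66.7 CPM on the light sides. The level of 3 heavy reads was 6920-fold lower, and the difference was -6.48 on the log2 scale (SE 1.05, limma adjusted p = 0.000754, kept under 12 of 16 alternatives). Its light reads came from single fractions that differed between gradients, and its transcriptome stage means were at most 0.718 CPM from the 4-cell stage on. At -6.66 without gradient B, the call was lost.

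Metal carriers were highest in MII oocytes, and most of that sum was 1 zinc carrier. Slc39a10, a zinc importer of the plasma membrane, was at 895, 1040.1, 846 and 995 CPM in MII transcriptomes, the highest stage mean of its class, and 25.6 ± 4.23 CPM in blastocysts. In MII oocytes its heavy sides held 275, 302 and 237 CPM and its light sides 73.5, 31.8 and 36.6 CPM. The sides did not overlap, and the difference, the largest heavy call among members there, was 2.58 on the log2 scale (SE 0.53, limma adjusted p = 0.000514, kept under 13 of 16 alternatives). Dropping gradient B gave 2.27, short of the test for the call. In zygotes the sides held 250.2, 164 and 220.2 CPM and 37.6, 27.4 and 41.7 CPM, 2.54 on the log2 scale (SE 0.55, limma adjusted p = 0.00102, kept under 14 of 16 alternatives). In GV oocytes, at 212 ± 75 CPM heavy and 87.7 ± 24.1 CPM light (mean ± SD, n = 3), the difference was 1.24 on the log2 scale (SE 0.54, limma adjusted p = 0.217) and did not pass. From 2-cell to 4-cell embryos the heavy side fell, with a change of -5.27 on the log2 scale (SE 1.66, limma adjusted p = 0.0282, kept under 11 of 16 alternatives), as did that of Slc39a6, with which Slc39a10 forms a complex, with -7.41 on the log2 scale (SE 1.58, limma adjusted p = 0.00203, kept under 15 of 16 alternatives). Once gradient A, B or C was left out, at -5.11, -4.72 and -6.00, the fall of Slc39a10 was lost. Leaving out gradient C gave -7.28 and lost that of Slc39a6.

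Slc30a3, which loads zinc into vesicles, was at 209, 266, 224 and 255 CPM in GV transcriptomes and 1.92 ± 1.14 CPM in blastocysts. Its heavy side held 4497, 4109.5 and 4308 CPM in 2-cell embryos and 0.107, 34 and 34.5 CPM in 4-cell embryos. This was the largest fall among members in that step, -8.60 on the log2 scale (SE 1.69, limma adjusted p = 0.00101, kept under 16 of 16 alternatives). The zinc exporter to the Golgi, Slc30a6, had 0 heavy reads in 2-cell embryos and 493, 57.6 and 134 CPM in 4-cell embryos. This was 11700-fold above the level of 3 reads, with a fitted change of 7.30 on the log2 scale (SE 1.63, limma adjusted p = 0.00283, kept under 16 of 16 alternatives). Slc39a14, an importer of zinc and iron, had the only heavy-side call among members from 4-cell to 8-cell embryos, from 0.466, 0.274 and 0.0975 CPM to 25.8, 47.8 and 32.2 CPM, 4.79 on the log2 scale (SE 0.85, limma adjusted p = 0.0126, kept under 9 of 16 alternatives). Without gradient A, B or C the values were 5.09, 4.56 and 4.73, and the call was lost. Slc11a2, which imports ferrous iron, fell from 292, 318 and 280.4 CPM in GV to 74, 82.8 and 67.1 CPM in MII oocytes, -1.98 on the log2 scale (SE 0.33, limma adjusted p = 0.000198, kept under 15 of 16 alternatives). Slc40a1, the iron exporter ferroportin, lay on the light side in blastocysts, at 3.02, 0 and 0.637 CPM heavy and 10.9, 12.4 and 3.27 CPM light, -2.23 on the log2 scale (SE 0.51, limma adjusted p = 0.00106, kept under 11 of 16 alternatives). The call was lost without gradient B, at -1.47.

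**Figure D5:**
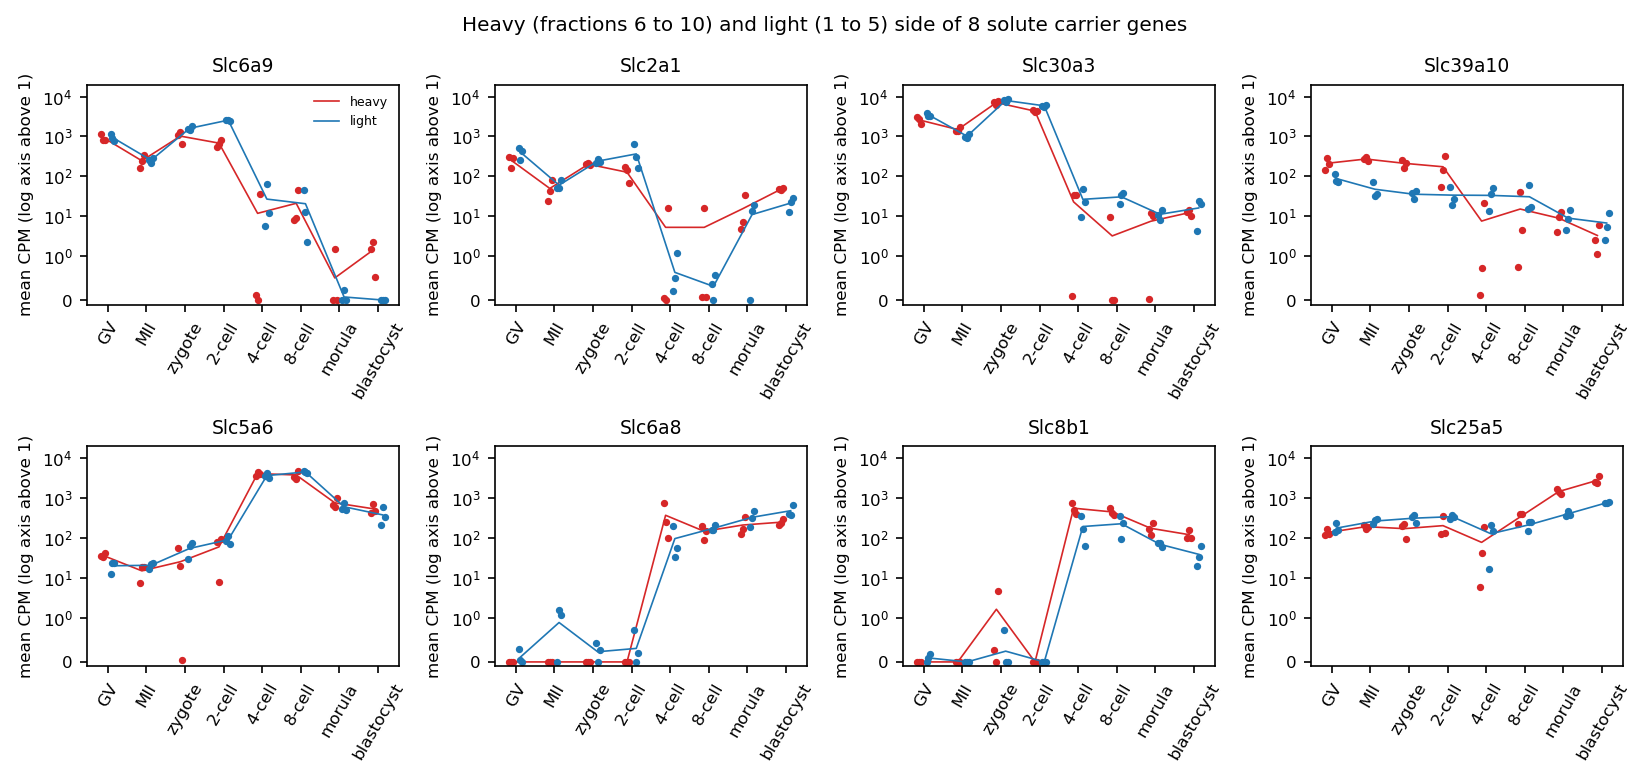
Mean CPM of the heavy side and of the light side (y axes, symmetric log scale, mean of 3 gradients) of 8 members at the 8 stages (x axes). Slc6a9 and Slc30a3 drop on both sides between 2-cell and 4-cell embryos, Slc5a6, Slc6a8 and Slc8b1 climb there, Slc39a10 has its sides apart in MII oocytes and zygotes, and Slc25a5 has them apart in morulae and blastocysts.

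The 22 carriers of nucleosides and nucleotide sugars include the Slc35 proteins of the Golgi and the endoplasmic reticulum. Slc35a1, the Golgi carrier of CMP-sialic acid, averaged 163 ± 19.5 CPM in MII transcriptomes, and Slc35b3, which carries the sulfate donor PAPS, 139.8 ± 7.99 CPM in GV oocytes. On the heavy side Slc35b1, a carrier of ATP into the endoplasmic reticulum, had the largest rise among members from GV to MII oocytes, from 66.4, 88.7 and 90.4 CPM to 810.3, 783 and 499 CPM, 3.06 on the log2 scale (SE 0.44, limma adjusted p = 3.48e-05, kept under 14 of 16 alternatives). From zygotes to 2-cell embryos Slc35e3 rose by 5.67 on the log2 scale (SE 1.07, limma adjusted p = 0.00117, kept under 14 of 16 alternatives). Slc35f2 had 0 heavy reads in 2-cell embryos and lay 16000-fold above the level of 3 reads in 4-cell embryos, 8.01 on the log2 scale (SE 1.13, limma adjusted p = 4.78e-05, kept under 16 of 16 alternatives). The nucleoside carrier Slc29a2 rose in that step by 7.01 on the log2 scale (SE 1.17, limma adjusted p = 0.000222, kept under 15 of 16 alternatives), and the unclassified Slc49a4 by 5.60 on the log2 scale (SE 1.06, limma adjusted p = 0.000682, kept under 16 of 16 alternatives).

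Among carriers of lipids and organic anions, Slco3a1 averaged 141 ± 22 CPM in MII transcriptomes and Slco1a5 50.7 ± 7.42 CPM in GV oocytes. Slco4a1, which carries thyroid hormone, had the largest fall among members from GV to MII oocytes, from 35.1, 49.1 and 55.1 CPM to 0.00898, 4.19 and 5.87 CPM on the heavy side, -3.82 on the log2 scale (SE 0.63, limma adjusted p = 0.000168, kept under 14 of 16 alternatives). It also had the largest rise from MII oocytes to zygotes, to 30.6, 25.6 and 27.2 CPM, 3.12 on the log2 scale (SE 0.72, limma adjusted p = 0.0106, kept under 9 of 16 alternatives). At 2.19 and 3.50 without gradient A or B, the rise was lost. The sulfate carrier Slc13a4 had the largest light call among members at 5 stages. In morulae it was at 5.33, 0.596 and 1.99 CPM heavy and 236, 110.2 and 112 CPM light, -5.53 on the log2 scale (SE 0.76, limma adjusted p = 9.86e-07, kept under 14 of 16 alternatives), and in blastocysts at 0.558, 0.231 and 0.642 CPM and 21.2, 24.2 and 16.1 CPM, -3.86 on the log2 scale (SE 0.50, limma adjusted p = 1.61e-07, kept under 15 of 16 alternatives). The sides overlapped at neither stage, and both calls held without fraction 1. In MII oocytes, 2-cell and 8-cell embryos its differences were -2.64 on the log2 scale (SE 0.60, limma adjusted p = 0.00154, kept under 11 of 16 alternatives), -5.19 on the log2 scale (SE 1.41, limma adjusted p = 0.0289, kept under 7 of 16 alternatives) and -4.48 on the log2 scale (SE 1.14, limma adjusted p = 0.0126, kept under 9 of 16 alternatives). Dropping gradient A or fraction 1 gave -1.76 and -0.46, short of the test for the MII call. Once gradient A, B or C or fraction 1 was left out, at -4.79, -5.06, -5.70 and -0.91, the 2-cell call was lost. Leaving out gradient A, B or C or fraction 1 gave -4.48, -4.39, -4.56 and -2.83 and lost the 8-cell call. The phosphate carriers Slc20a1 and Slc34a2 averaged 81.3 ± 17.8 CPM in blastocysts and 65.5 ± 14.8 CPM in 2-cell embryos. Of the neurotransmitter and drug carriers, Slc22a23 and Slc6a13 had the highest stage means, 24.9 ± 2.7 CPM in GV oocytes and 24.4 ± 4.96 CPM in blastocysts.

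Maturing oocytes lengthen the polyA tails of stored mRNAs that carry a U-rich cytoplasmic polyadenylation element (CPE) near the 3' end. For that reason sites are shown for members called heavy in MII oocytes or zygotes, or whose heavy-side CPM dipped in MII oocytes. The letters TTTTAT and TTTTAAT were searched on the transcript strand alone in the last 100 bases of GENCODE mouse release M21 transcripts (build GRCm38), matched by symbol for 180 of 185 members. Of all genes tested 18.5% held a match, of those called heavy in MII oocytes 30.8% and of those called light 10.4%; in zygotes the shares were 30.9% and 8.93%. Among members 40 of 180 (22.2%) held a match, among them 3 of 15 called heavy in MII oocytes, 1 of 7 called light, 2 of 10 called heavy in zygotes and 1 of 5 called light. Heavy members with a match were Slc39a10, Slc6a20a and Slc37a1 in MII oocytes and Slc39a10 and Slc43a3 in zygotes. Slc6a9 and Slco4a1, whose heavy side fell from GV to MII oocytes and rose again in zygotes, also held one. Over all members 16 fell in the first step and 7 rose in the second. Members that dipped without a match were not counted here, and a link of the match to the dip was not tested. The last 100 bases of Slc6a9 and Slco4a1 held neither AATAAA nor ATTAAA. The 30 bases around each match are printed 5' to 3', with the match and any AATAAA or ATTAAA polyadenylation signal in capitals. A match describes the letters and shows no binding or use of a site.
Slc39a10: tcaTTTTATatatgttcctaatgcttacgg
Slc6a20a: cttTTTTATcatAATAAAgtggatcaaggt
Slc37a1: agtTTTTATttaaaaaaaaaaaaagcccac
Slc43a3: tacTTTTATacaatAATAAAgcctctatgt
Slc6a9: aggTTTTAATgaaatttctattcctgtctc
Slco4a1: ataTTTTAATatttaaaccaatgatccttg
The match began 59 bases before the transcript end in Slc39a10, 33 in Slc6a20a, 39 in Slc37a1, 36 in Slc43a3, 30 in Slc6a9 and 33 in Slco4a1. In MII oocytes Slc6a20a, a proline transporter, was at 18.8, 62.2 and 52.2 CPM heavy and 13.3, 17.9 and 16.6 CPM light, 1.27 on the log2 scale (SE 0.40, limma adjusted p = 0.0226, kept under 8 of 16 alternatives), and Slc37a1 at 2.63, 2.26 and 9.89 CPM and 0.909, 0.267 and 0.768 CPM, 1.64 on the log2 scale (SE 0.50, limma adjusted p = 0.0198, kept under 6 of 16 alternatives). Without gradient B or C the values were 1.03 and 1.11, and the call for Slc6a20a was lost. The call for Slc37a1 was lost without gradient A, B or C, at 1.99, 1.77 and 1.14. Slc43a3 in zygotes differed by 1.48 on the log2 scale (SE 0.50, limma adjusted p = 0.0355, kept under 7 of 16 alternatives). At 1.36, 1.30 and 1.23 without gradient A or C or fraction 1, the call for Slc43a3 was lost.

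A list of 40 transporters known from oocytes, embryos or these pathways held 36 symbols of the table, of which 34 were members. Slc16a3, a lactate exporter of glycolytic cells, stayed at a highest stage mean of 0.474 CPM, and Slc38a2, a carrier of small neutral amino acids, at 4.76 CPM. Slc5a1, Slc16a7, Slc25a37 and Slc8a1 were not analysed here. Others of the list had their highest stage means at 83.1 ± 4.65 CPM in 4-cell embryos for the taurine carrier Slc6a6, 25.5 ± 5.27 CPM in 4-cell embryos for the glutamine carrier Slc1a5, 15.1 ± 4.55 CPM in MII oocytes for the arginine and lysine carrier Slc7a1 and 39 ± 3.72 CPM in GV oocytes for the citrate carrier Slc25a1. Highest in blastocysts were Slc7a6, a light chain of Slc3a2, at 70.5 ± 17.3 CPM, the glutamate carrier Slc1a1 at 46 ± 8.23 CPM, the zinc exporter Slc30a1 at 20.7 ± 6.68 CPM, the nucleoside carrier Slc29a1 at 19.5 ± 6.02 CPM, the chloride and bicarbonate exchanger Slc4a2 at 17.5 ± 6.1 CPM and the carnitine carrier Slc22a5 at 12.4 ± 4.07 CPM. On the heavy side Slc6a6 held 85.7, 132 and 147 CPM in zygotes, 0.589, 60.5 and 0.338 CPM in 2-cell embryos and 718, 45.1 and 540.0 CPM in 4-cell embryos. The 2-cell and 4-cell values overlapped through gradient B, while the zygote values were all above those of 2-cell embryos. The heavy side fell and rose again, with changes of -4.56 on the log2 scale (SE 0.96, limma adjusted p = 0.00301, kept under 11 of 16 alternatives) and 5.69 on the log2 scale (SE 1.30, limma adjusted p = 0.00346, kept under 12 of 16 alternatives). Dropping gradient A or C gave -3.95 and -3.44, short of the test for the fall. Once gradient A or C was left out, at 4.12 and 4.20, the rise was lost. Slc4a2 fell from 82.6, 64.6 and 54.9 CPM in zygotes to 0, 10.4 and 0 CPM in 2-cell embryos, -4.91 on the log2 scale (SE 1.30, limma adjusted p = 0.0157, kept under 14 of 16 alternatives). Leaving out gradient A or C gave -4.17 and -4.46 and lost the call. In MII gradients Slc7a6 was light, at 14.7, 11.2 and 10.7 CPM heavy and 51.1, 35.9 and 35.6 CPM light, -1.66 on the log2 scale (SE 0.40, limma adjusted p = 0.00273, kept under 13 of 16 alternatives). Without gradient B the value was -1.68, and the call was lost.

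A second list of 31 genes that work beside solute carriers, such as ion pumps, the calcium channel and pyruvate carrier of mitochondria, aquaporins and hexokinases, had 28 genes tested. On gradient position 3 of these were heavy and 0 light in GV oocytes (all genes 3.3% and 0.811%), 5 and 1 in zygotes (9.95% and 5.06%), 3 and 1 in morulae (5.06% and 6.29%) and 2 and 5 in blastocysts (7.24% and 10.1%). Their medians were 0.17, -0.15, 0.35 and 0.01, beside 0.08, -0.04, 0.0025 and -0.02 over all genes. MII oocytes had 1 and 1 (8.86% and 6.33%) and 8-cell embryos 0 and 1 (1.08% and 4.03%). Neither the 2-cell (1.52% and 2.02%) nor the 4-cell stage (0.125% and 0.692%) had a call. In blastocysts the aquaglyceroporin Aqp3 was heavy, by 1.66 (SE 0.34, limma adjusted p = 0.000311) on the log2 scale. On the light side there were Atp1b3, a beta subunit of the sodium pump, with a difference of -1.47 (SE 0.31, limma adjusted p = 0.000434), and the hexokinase Hk2, with -1.75 (SE 0.33, limma adjusted p = 9.64e-05). The mitochondrial calcium channel Mcu, unlike the Slc25 carriers called heavy there, was light in morulae, with a difference of -2.73 (SE 0.42, limma adjusted p = 6.8e-06), though the difference between the genes was not tested.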

How the data were processed

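Polyadenylated RNA of 32 transcriptome pools and 240 gradient fractions was sequenced. Per the submitters' processing notes, Trim Galore 0.6.7, FastQC, HISAT2 2.2.1, featureCounts 2.0.1 and edgeR were used, with build GRCm39; the annotation is not given in the sources used here. The deposited table holds CPM made by the authors per library. In a few columns symbols with repeated identical values lift the sum above that of a CPM column, so these deposited values were treated as a signal on the CPM scale. Of 15854 symbols, 159 in 76 groups had identical values and were reduced to 1 each, leaving 15771; none was a solute carrier.

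Side means per gradient (fractions 6 to 10 and 1 to 5) were transformed as log2(CPM + 1) and tested with limma 3.58.1 in R 4.3.3 (lmFit with arrayWeights by stage, eBayes with trend), over genes with at least 1 CPM in at least 3 means, Benjamini-Hochberg adjusted over all genes. One fit over all stages gave residual degrees of freedom, and weights by stage let the spread differ between stages. Whole reads were recovered for 100.0% of values in each library (within 0.05 reads), and edgeR 4.0.16 on them was an alternative; with all groups it called 165 genes on gradient position in MII oocytes against 2304 in limma, and with that stage alone 1914. A 2-cell library of fraction 7, in which 1 read is worth 0.101 CPM, was left out of the edgeR fits and kept in the limma means. A level against a side with 0 reads was taken against 3 reads over the group, which covers counting error only. The limma fits of gradient position and of the heavy side were tested on simulated data; in comparisons with 2-cell, 4-cell or 8-cell gradients they recovered few or none of the changed genes, and in some of these most of the few calls were false. For gradient position in morulae few of the changed genes were recovered as well. False calls made up more than 0.05 of the position calls at all stages but the 4-cell, and of the heavy-side calls in most steps. The alternatives and the shift test were not simulated.

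Heavy and light sides with the same letter within a stage come from the same gradient; their deviations from the group means correlated at a median r of 0.107 (0.0038 to 0.298 over 24 gradients, 15 above 0.1). No libraries of a group agreed within sampling noise (chi-square per degree of freedom at least 2.55 over 288 pairs). The 2-cell transcriptome columns carry other letters than the labels and were used as a group.

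The rule for named genes took the list of 40 transporters, the 2 members of each class with the highest stage mean, the member called with the largest difference in each direction of each comparison, and the 2 symbols on either side of the threshold. Other members were named after their values were seen, and some genes of the lists are not reported here. The members, classes and lists were chosen with earlier results of these data known. Transcript lengths and ends came from GENCODE mouse release M21 by symbol. Sequences by GRCm39 coordinates, and proteins, were not used here.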

Additional observations from a re-analysis of the deposited data

Results flagged for a closer look

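A direct test of the shift in gradient position between consecutive stages flagged 6 results, each with few or no reads on 1 or both sides in 1 of the stages. For Slc30a2, a zinc exporter to vesicles, the heavy minus light difference moved by 5.35 on the log2 scale from zygotes to 2-cell embryos and by -7.56 from 2-cell to 4-cell embryos; in 2-cell embryos its heavy sides held 79.6, 54.2 and 37.9 CPM and its light sides 3.88, 0.203 and 5.93 CPM. The first call was lost without gradient A, B or C, at 5.30, 4.95 and 5.81. At -7.01, -6.25, -9.41 and -6.53 without gradient A, B or C or fraction 1, the second call was lost.

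Slc5a12, the monocarboxylate carrier, moved by -4.69 from zygotes to 2-cell embryos. Dropping gradient C gave -3.65, short of the test for the call. Slc16a6 moved by 4.74 between the same stages, from 0 heavy reads in zygotes. Once gradient A, B or C was left out, at 4.99, 4.85 and 4.38, the call was lost.

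Slc24a3, the sodium, calcium and potassium exchanger, moved by -4.13 from zygotes to 2-cell embryos and by 6.43 from 4-cell to 8-cell embryos. Leaving out gradient A, B or C gave -5.29, -3.41 and -3.68 and lost the first call. Without gradient A, B or C the values were 6.08, 6.61 and 6.61, and the second call was lost. In 8-cell embryos its light sides held 0.0753, 0.0198 and 0 CPM and its heavy sides 0, 0 and 0 CPM. In the 4-cell gradients its light reads came from single fractions that differed between gradients, in gradient A from fraction 5 alone.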

How the results depend on the processing

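Of the 257 member calls for position, shift and the heavy side, taken gene by gene, 140, 168 and 139 lost the threshold without gradients A, B and C, 20 with a replicate block, 8 with a filter of 5 CPM, 52 with quantile normalization, 121 with 1 spread for all stages, 157 with fits of only the groups compared, 178 in edgeR over all groups and 171 in edgeR over only the groups compared. Slc30a5, a zinc carrier not described above, changed direction: light in limma at -4.24 in 2-cell embryos and -2.19 in morulae, its position was 0.14 in 2-cell embryos without fraction 1, and 0.12 and 0.0093 in morulae in edgeR over all groups and over morulae alone; the cause was not tested. The replicate block removed gradient letters, which pair the sides of 1 gradient but not stages: same letters of consecutive stages correlated at -0.119 to 0.130, with 2 of 21 above 0.1. The 2 alternatives without fraction 1 and with edgeR over the groups compared were chosen after seeing the data. Fraction 1 and the 2-cell to 8-cell gradients, with members at 0 reads in 1 gradient, limit the depth behind these values. The counts that follow are of members, and shares of all genes under each setting are not given beside them. With 1 spread shared by all stages, counts of calls were for position GV 0, MII 2, zygote 1, 2-cell 36, 4-cell 36, 8-cell 11, morula 6, blastocyst 3, for shift zygote to 2-cell 11, 2-cell to 4-cell 17, 4-cell to 8-cell 3, for heavy side GV to MII 8, MII to zygote 1, zygote to 2-cell 48, 2-cell to 4-cell 89, 4-cell to 8-cell 17, morula to blastocyst 0, for mitochondrial carriers heavy morula 1, blastocyst 1. With only the groups compared, counts of calls were for position GV 0, zygote 8, 2-cell 0, 4-cell 0, 8-cell 3, morula 9, blastocyst 17, for heavy side MII to zygote 2, zygote to 2-cell 17, 2-cell to 4-cell 24, 4-cell to 8-cell 0, 8-cell to morula 9, morula to blastocyst 0, for mitochondrial carriers heavy blastocyst 6. With a pseudocount of 0.1, counts of calls were for position GV 2, zygote 8, 8-cell 2, blastocyst 17, for shift GV to MII 1, MII to zygote 1, 4-cell to 8-cell 0, for heavy side 4-cell to 8-cell 3, morula to blastocyst 2. In edgeR over all groups, counts of calls were for position GV 0, MII 3, zygote 2, 2-cell 33, 4-cell 31, morula 2, blastocyst 0, for shift zygote to 2-cell 13, 2-cell to 4-cell 37, 4-cell to 8-cell 15, 8-cell to morula 3, for heavy side GV to MII 1, MII to zygote 0, 2-cell to 4-cell 92, 4-cell to 8-cell 10, 8-cell to morula 14, morula to blastocyst 0, for mitochondrial carriers heavy morula 0, blastocyst 0. Without fraction 1, counts of calls were for position GV 12, 2-cell 7, 4-cell 2, 8-cell 2, morula 10, for shift 2-cell to 4-cell 0. In edgeR over only the groups compared, counts of calls were for position GV 12, 2-cell 1, 4-cell 0, 8-cell 0, morula 4, for shift GV to MII 1, zygote to 2-cell 7, 2-cell to 4-cell 0, 4-cell to 8-cell 0, for heavy side MII to zygote 3, zygote to 2-cell 2, 2-cell to 4-cell 12, 4-cell to 8-cell 0, 8-cell to morula 8, morula to blastocyst 0, for mitochondrial carriers heavy morula 3. With quantile normalization, counts of calls were for position zygote 23, 2-cell 6, for shift 2-cell to 4-cell 0, for heavy side 4-cell to 8-cell 0, morula to blastocyst 12. With a mean of log2 values, counts of calls were for position zygote 26, 2-cell 28, 4-cell 4, 8-cell 8, for shift 2-cell to 4-cell 4, 4-cell to 8-cell 0, for heavy side zygote to 2-cell 90, 4-cell to 8-cell 11, 8-cell to morula 41, morula to blastocyst 18. With a pseudocount of 5, counts of calls were for position 4-cell 6, for shift GV to MII 2, MII to zygote 2, morula to blastocyst 2, for heavy side morula to blastocyst 13. With fractions 7 to 10 against 1 to 4, counts of calls were for position 4-cell 3, 8-cell 12, blastocyst 42, for shift MII to zygote 1, 2-cell to 4-cell 0, 4-cell to 8-cell 0. With a replicate block, counts of calls were for shift GV to MII 3, 2-cell to 4-cell 2, 4-cell to 8-cell 0. With a filter of 5 CPM, counts of calls were for shift 4-cell to 8-cell 0. Leaving out 1 gradient at a time gave for position GV 0 to 2, MII 6 to 16, zygote 6 to 10, 2-cell 2 to 4, 4-cell 0 to 2, 8-cell 1 to 6, morula 9 to 13, blastocyst 11 to 17, for shift GV to MII 0 to 1, MII to zygote 0 to 1, zygote to 2-cell 0 to 2, 2-cell to 4-cell 0 to 0, 4-cell to 8-cell 0 to 1, 8-cell to morula 0 to 1, for heavy side GV to MII 15 to 20, MII to zygote 0 to 5, zygote to 2-cell 12 to 19, 2-cell to 4-cell 22 to 39, 4-cell to 8-cell 0 to 1, 8-cell to morula 8 to 17, morula to blastocyst 0 to 1, for mitochondrial carriers heavy morula 2 to 6, blastocyst 6 to 7. Beside each, the counts over all members as reported were GV 6, MII 23, zygote 15, 2-cell 12, 4-cell 1, 8-cell 5, morula 16, blastocyst 27 for position and GV to MII 25, MII to zygote 12, zygote to 2-cell 30, 2-cell to 4-cell 47, 4-cell to 8-cell 1, 8-cell to morula 24, morula to blastocyst 7 for the heavy side.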

Other observations

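Several members had levels in the fractions that were far from those in the transcriptomes of the same stage, in both directions; all values are mean ± SD, with n = 4 transcriptomes and n = 3 gradients, and the members were picked after their values were seen. Slc6a9 in GV oocytes was at 18.1 ± 2.7 CPM in the transcriptomes, 937 ± 198 CPM on the heavy side and 941 ± 187 CPM on the light side. Slc30a3 in 2-cell embryos was at 80.2 ± 37.5 CPM in the transcriptomes, 4305 ± 194 CPM on the heavy side and 5842 ± 378 CPM on the light side. Slc5a6 in 4-cell embryos was at 628 ± 122 CPM in the transcriptomes, 4075 ± 445 CPM on the heavy side and 3625 ± 560.2 CPM on the light side. Slc39a10 in MII oocytes was lower in the fractions, at 944 ± 89.3 CPM in the transcriptomes, 271 ± 32.9 CPM on the heavy side and 47.3 ± 22.8 CPM on the light side. Slc45a3 in MII oocytes was, like the first 3, higher in the fractions, at 499 ± 79.3 CPM in the transcriptomes, 7174 ± 2112 CPM on the heavy side and 3504 ± 1060.2 CPM on the light side. Both kinds of value are shares of a library, and the cause was not tested.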
